A study of Mus musculus with 6 samples.

Results

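The mitochondrial ribosomal protein genes were taken as every gene whose symbol begins with Mrpl or Mrps and goes on with a number, with at most 1 letter after it. The 6 count files held 76 such genes among 17485 gene names, and all 76 had enough counts to be among the 12755 genes tested. Of these, 47 carry a large subunit symbol (Mrpl) and 29 a small subunit symbol (Mrps). The cells were E14 mouse embryonic stem cells of 129/Ola background, an established line grown in serum and leukaemia inhibitory factor (LIF) on gelatin. Starting 24 h after seeding, they received 250 µg/mL cycloheximide in 0.007% ethanol for 3 h or 6 h, and the controls received ethanol alone for 9 h. Each group had 2 libraries, and no group differed from another in genotype or strain. The hours of exposure differed between control and treated cells, so the drug and the hours cannot be told apart in the comparisons with control.

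Mitochondria keep a ribosome of their own, which makes the hydrophobic core subunits of the respiratory chain and ATP synthase from messages of the mitochondrial chromosome. Its rRNAs are encoded in the mitochondrion, whereas all of its proteins are encoded in the nucleus, made by cytoplasmic ribosomes and imported. Some of these proteins descend from bacterial ribosomal proteins and others are found only in mitochondria. Cycloheximide blocks elongation on cytoplasmic ribosomes and does not block mitochondrial ribosomes, so it stops the supply of the proteins studied here while their messages can still be made and degraded.

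Library totals ranged from 9385447 to 27351079 counts, with both 6 h libraries the deepest, and the lowest count of any member in any library was 87. The mitochondrial chromosome gave 24.7% and 24.9% of the counts in the control libraries, 19.6% and 18.9% at 3 h, and 17.5% and 16.6% at 6 h. All 9 pluripotent stem cell markers checked were tested, with a summed level of 6784 to 6951 CPM in control, 7885 to 8151 CPM at 3 h and 5480 to 5660 CPM at 6 h. These markers did not move alike. Sox2 went from 2282 and 2602 CPM in control to 3849 and 3958 CPM at 3 h, and Utf1 from 1063 and 1060 CPM to 801 and 744 CPM. Zfp42 went from 727 and 676 CPM in control to 352 and 359 CPM at 6 h. Of 5 trophectoderm markers 4 were in the files and 2 were tested. They summed to 37.9 to 51.9 CPM in control, 29.8 to 30.4 CPM at 3 h and 20.4 to 21.7 CPM at 6 h. Nearly all of this was Krt8, at 36.8 and 51.6 CPM in control, 29.7 and 29.0 CPM at 3 h and 19.5 and 21.0 CPM at 6 h. The endoderm markers summed to 5.41 to 7.33 CPM in control, 13.8 to 14.6 CPM at 3 h and 11.3 to 14.0 CPM at 6 h. Fibroblast markers (5 of 7 genes in the files) summed to 3.07 to 10.1 CPM per library, highest in both controls. Neural or mesodermal markers summed to 60.7 to 117 CPM, highest at 3 h, and nearly all of this was Sox1, at 57.9 to 113 CPM. The part of other cell types in the results was not tested. Here and below, CPM is a gene's counts per 1000000 counts, with library sizes scaled by the trimmed mean of M values (TMM), and log2 fold changes come from edgeR on the same scaling. Nothing in the labels says that replicate libraries came from separate cultures, so a p-value measures only the spread between these libraries, which may be technical.

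Relative to other genes, messages for the mitochondrial ribosome were lower after 6 h of cycloheximide. At 6 h, 35 of the 76 members fell and 4 rose at an edgeR adjusted p under 0.05, while 14.3% of all genes tested fell and 14.8% rose. With library size as the only scaling 10 members fell and 5 rose, and of all 12755 genes 494 (3.87%) fell and 3679 (28.8%) rose. The members' median log2 fold change was -0.36 against 0.04 over all genes tested, and 68 of the 76 lay below 0. Their changes were also closer together than those of other genes, with an interquartile range of 0.45 against 0.98 on the log2 scale. The members were also measured more precisely, with a median SE of 0.145 against 0.228, and their median level was 45.9 CPM against 15.6 CPM over the tested protein-coding genes. Spearman's rho of the log2 fold change at 6 h with mean CPM was -0.32 over the 11553 tested protein-coding genes and -0.04 over the members. The part of level and precision in the narrower range, the share called and the lower median was not tested. Fewer cells and less RNA per cell cannot be told apart in these bulk libraries, and every level is relative to the rest of its library. Leaving out 1 library lowered the counts of members and of all genes together. Without 6 h replicate 2, 11 members and 586 of all genes were called lower, and without 6 h replicate 1, 14 and 892, against 35 and 1821 with all libraries. Without control replicate 1 there were 26 and 1680, and without control replicate 2, 27 and 1440.

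The scaling sets where 0 lies. Scaling by library size alone moved the median of all genes from 0.04 to 0.40 at 6 h and from 0.02 to 0.25 at 3 h, and it moved the members by as much, to a median of -0.01 at 6 h. Relative to the median of all genes, the members' median was -0.40 under TMM, library size, upper quartile and relative log expression scaling. A factor per library shifts all genes alike, so this distance is the same by construction and is no sign of stability. A direction given below is that under TMM unless another is named.

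**Figure D1:**
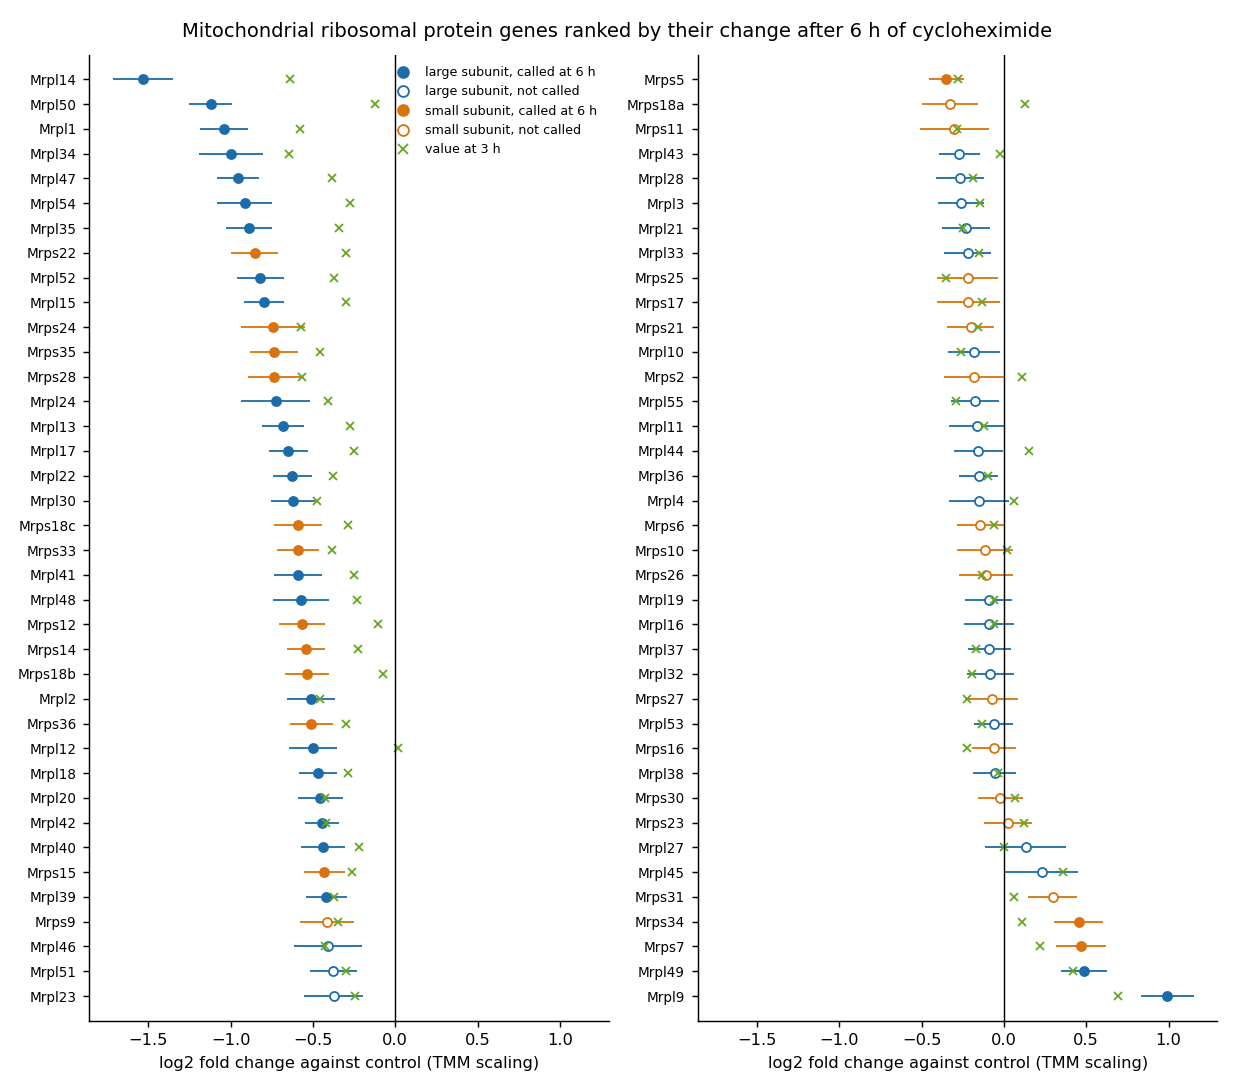
The 76 members ordered by their log2 fold change at 6 h against control under TMM scaling (circles, with bars of 1 SE; filled where the edgeR adjusted p was under 0.05), with the value at 3 h as crosses. The list starts with Mrpl14 at -1.53 at the top left, and 4 filled circles, at the bottom right, lie above 0; with library size alone as scaling all values shift upwards and 10 members are called lower.

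The members with the lowest values at 6 h were mostly proteins of the large subunit. Mrpl14 is the mitochondrial form of a conserved protein at the face where the subunits join. It stood at 63.6 and 68.1 CPM in the controls, 46.1 and 38.5 CPM at 3 h and 26.1 and 19.2 CPM at 6 h. The groups did not overlap, and each later group lay below the one before. Its log2 fold change was -0.64 (SE 0.18) at 3 h, with an edgeR adjusted p of 0.0762, and -1.53 (SE 0.18) at 6 h, with an edgeR adjusted p of 0.00106. A stretch of 106 exon bases of Mrpl14 lies opposite exons of Tmem63b, a membrane protein gene whose own log2 fold change at 6 h was -1.10 (4.98 CPM in control). Whether counting used strand is not given in the sources used here, so reads over those bases cannot be assigned.

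Mrpl50, a large subunit protein found only in mitochondria, followed another course. The control libraries had 70.1 and 72.7 CPM, the 3 h libraries 63.0 and 68.1 CPM and the 6 h libraries 33.6 and 31.9 CPM. The 3 h libraries thus lay just under the controls, and the drop fell between 3 h and 6 h. Its log2 fold change was -0.12 (SE 0.13) at 3 h and -1.12 (SE 0.13, edgeR adjusted p = 0.000907) at 6 h. Between 3 h and 6 h its log2 change was -0.999 (SE 0.13, edgeR adjusted p = 0.00994). It was the single member of 76 called in that comparison, in which 1.18% of all genes tested fell and 0.455% rose. That call was lost when any 1 of the 4 libraries compared was left out, with edgeR adjusted p between 0.0811 and 0.154 and log2 values between -1.05 and -0.94.

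Mrpl1, which forms the mobile stalk beside the site where spent tRNA leaves, was at 67.4 and 76.5 CPM in control, 43.9 and 52.1 CPM at 3 h and 34.2 and 35.5 CPM at 6 h. Mrpl34, a small basic protein buried in the rRNA, was at 223 and 345 CPM in control, 164 and 198 CPM at 3 h and 145 and 139 CPM at 6 h. Mrpl47, which sits at the mouth of the tunnel through which the new chain leaves, was at 90.3 and 90.1 CPM in control, 64.7 and 73.3 CPM at 3 h and 46.9 and 46.1 CPM at 6 h. In all 3 genes the control libraries lay above the 3 h libraries and these above the 6 h libraries. The control libraries of Mrpl34 differed from each other more than those of Mrpl1 and Mrpl47. Their log2 fold changes at 6 h were -1.04 (SE 0.15) for Mrpl1, -0.998 (SE 0.20) for Mrpl34 and -0.96 (SE 0.13) for Mrpl47. The edgeR adjusted p was 0.00216, 0.00742 and 0.00166 in that order. Mrpl54 (-0.92, SE 0.17) and Mrpl35 (-0.89, SE 0.14), also of the large subunit, fell at 6 h as well. Mrps22 was the lowest member of the small subunit, at 34.3 and 33.7 CPM in control, 29.0 and 26.4 CPM at 3 h and 18.5 and 19.1 CPM at 6 h. It is found only in mitochondria and is mutated in inherited disorders of mitochondrial translation. Its log2 fold change at 6 h was -0.85 (SE 0.14, edgeR adjusted p = 0.00437).

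Over 16 other ways of running the test, which included leaving out each control and each 6 h library and scaling by library size alone, 8 members were called lower at 6 h every time. These were Mrpl14, Mrpl50, Mrpl1, Mrpl47, Mrpl35 and Mrps22, together with Mrpl52 (-0.82, SE 0.14) and Mrpl15 (-0.80, SE 0.12), which are named here after their values were seen. Mrpl34 and Mrpl54 were called in 15 of the 16.

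The 4 members that rose at 6 h were Mrpl9 and Mrpl49 of the large subunit and Mrps7 and Mrps34 of the small subunit. Mrpl9, a protein with a bacterial counterpart, was at 21.8 and 18.7 CPM in control, 30.8 and 34.8 CPM at 3 h and 37.5 and 43.4 CPM at 6 h. Each later group lay above the one before without overlap. Its log2 fold change was 0.69 (SE 0.16, edgeR adjusted p = 0.0497) at 3 h and 0.99 (SE 0.16, edgeR adjusted p = 0.00387) at 6 h. At 6 h it was called under all 16 alternatives. At 3 h it was the single member called, beside 3.6% of all genes tested that rose, and it was called in 6 of 16 alternatives. The call was lost with upper quartile (edgeR adjusted p = 0.0518) and relative log expression scaling (0.0533), limma-voom (0.0737), the replicate block (0.0724), only the libraries compared (0.0956), mitochondrially encoded genes left out (0.0514) and thinning (0.0511). It was also lost without control replicate 2 (0.59, edgeR adjusted p = 0.125), without 3 h replicate 1 (0.78, edgeR adjusted p = 0.143) and without 3 h replicate 2 (0.60, edgeR adjusted p = 0.236).

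Mrps7, a conserved protein of the head of the small subunit, was at 30.5 and 37.4 CPM in control, 41.2 and 37.7 CPM at 3 h and 46.6 and 47.0 CPM at 6 h. Mrpl49, found only in mitochondria, was at 37.6 and 32.3 CPM in control, 47.5 and 46.3 CPM at 3 h and 49.2 and 49.0 CPM at 6 h. Mrps34, also found only in mitochondria, was at 25.6 and 22.5 CPM in control, 26.2 and 25.9 CPM at 3 h and 34.0 and 32.1 CPM at 6 h. Mrpl49 had thus reached nearly its 6 h level by 3 h, whereas Mrps34 at 3 h was close to its higher control library. Their log2 fold changes at 6 h were 0.47 (SE 0.15, edgeR adjusted p = 0.0461) for Mrps7, 0.49 (SE 0.14, edgeR adjusted p = 0.0303) for Mrpl49 and 0.45 (SE 0.15, edgeR adjusted p = 0.0474) for Mrps34. They were called in 9, 12 and 6 of the 16 alternatives in the same order. Without 6 h replicate 1, and likewise without 6 h replicate 2, 1 member rose, Mrpl9, and without control replicate 2 there were 2. Mrps31, the next highest member at 0.30 (SE 0.15), did not pass the test (edgeR adjusted p = 0.169).

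**Figure D2:**
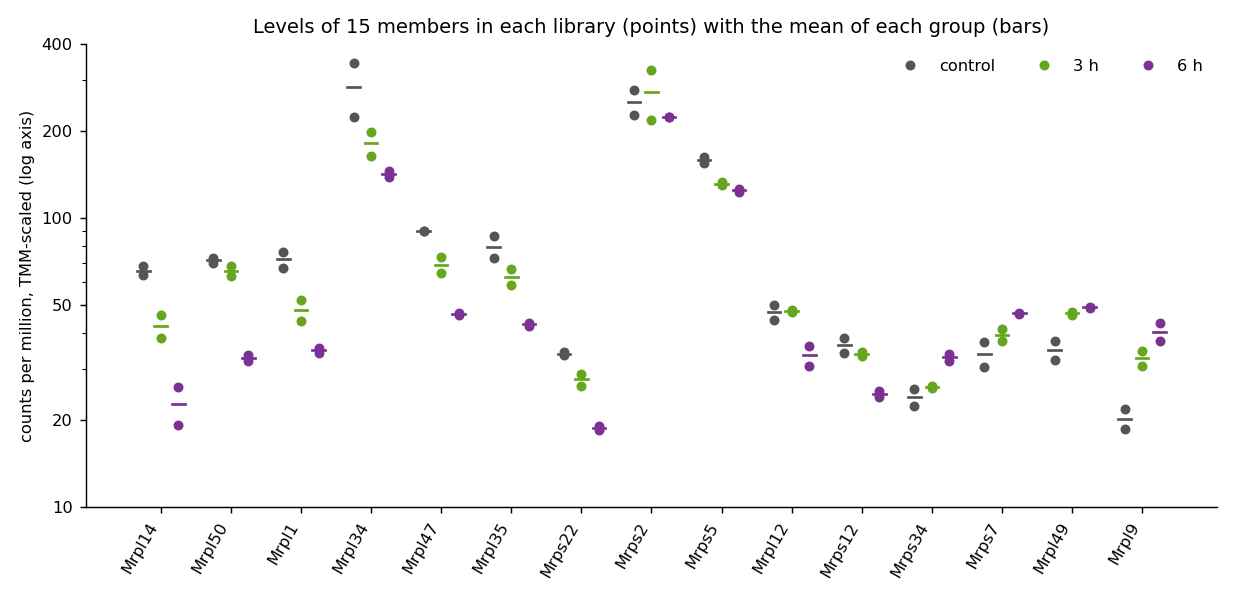
TMM-scaled CPM of 15 members in each library on a log axis, as points for the 2 libraries of each group with the group mean as a bar; levels are not divided by length and are for comparison within a gene. From Mrpl14 to Mrps22 the 6 h points lie under the control points, and for Mrps34, Mrps7, Mrpl49 and Mrpl9 above them.

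All 4 members that rose share exon bases with a neighbouring gene in the GENCODE annotation of GRCm38. Mrpl9 shares 157 bases (5.81% of its exon bases) with Oaz3 on the other strand, and Mrpl49 shares 91 (4.85%) with Syvn1. Mrps7 shares 127 (6.13%) with Gga3 and 119 (5.74%) with Mif4gd. Mrps34 shares far more, 1309 bases (63.4%) with Mapk8ip3 on the other strand and 763 (37.0%) with Nme3 on its own strand. Oaz3 was not among the genes tested and has no value. At 6 h the log2 fold changes of the other neighbours were 1.03 for Gga3, 1.35 for Mapk8ip3, 0.75 for Nme3, -0.25 for Mif4gd and -0.75 for Syvn1, of which the first 3 were called and the others were not. Their mean levels in control and at 6 h were 20.6 and 41.7 CPM for Gga3, 2.53 and 6.60 CPM for Mapk8ip3 and 12.2 and 20.4 CPM for Nme3. Those of Mif4gd were 108 and 90.6 CPM, and those of Syvn1 13.8 and 8.29 CPM. The part of the neighbours' reads in the members' counts was not tested. Over all members, 31 of 76 share exon bases with another gene, among them 9 of the 35 that fell and 18 of the 37 that were not called. Among the 45 members with no shared exon base, 26 fell at 6 h, and their median log2 fold change was -0.44. The 31 with shared bases had a median of -0.22. Of the members named for their low values, Mrpl47 shares 452 bases with Actl6a and 616 with Ndufb5 on the other strand, whose log2 fold changes at 6 h were -0.35 and -0.44. Mrps24 shares 226 bases with Urgcp on its own strand, whose value was 1.77 (1.40 CPM in control and 4.47 CPM at 6 h). Mrpl24, which is named by its role and fell, shares 594 bases (26.3% of its exon bases) with Rrnad1 on the other strand. The value of Rrnad1 at 6 h was 1.31 (7.09 CPM in control and 17.7 CPM at 6 h). Mrpl23, Mrpl48 and Mrps36 have pseudogenes named after them, so their counts are uncertain where reads could be assigned to either copy.

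**Figure D3:**
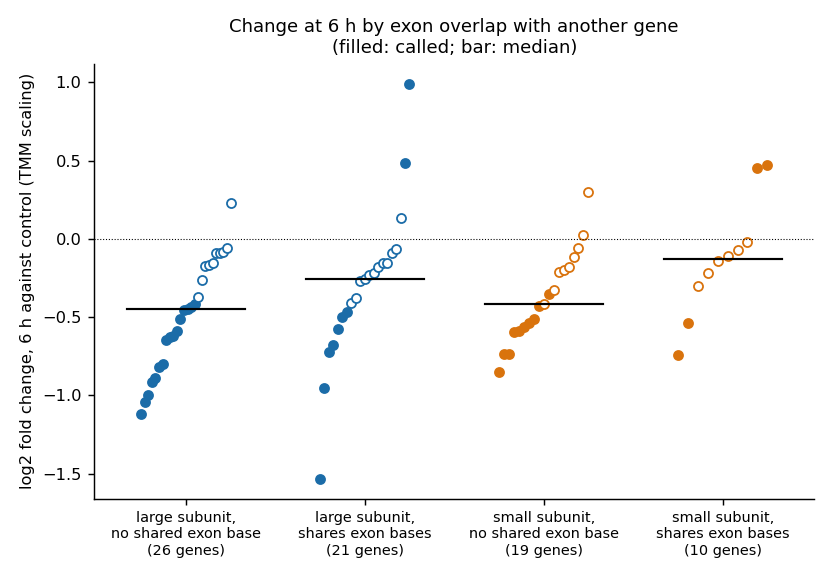
Log2 fold change at 6 h against control under TMM scaling for each member (points; filled where called), split by subunit and by whether the gene shares exon bases with another gene, with the median of each set as a bar. The 4 filled points above 0 are all in the sets that share exon bases; under library size scaling alone all points lie higher and 10 are called lower.

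Promoter windows from RefSeq (build GRCm38.p6, 250 bases before to 50 bases after the start) were found for 67 of the 76 members and read because so many of these genes changed in the same direction. They were searched on both strands for the letters of 4 motifs tied to genes of mitochondrial function: CCGGAAGT of ETS factors such as GABP, GCATGCGC of NRF1, AAGATGGC of YY1 and the E-box CACGTG of Myc and its relatives. The ETS letters were in the windows of 17.9% of the members, against 4.31% of 27025 genes with a window and 9.05% of the 9472 of these that were tested. The YY1 letters were in 17.9%, against 3.19% and 5.33%, and the NRF1 letters in 11.9%, against 3.05% and 6.37%. The E-box was in 7.46%, against 8.09% and 12.1%. None of the 4 was in 53.7% of the members' windows, against 71.3% of those of the tested genes. These are descriptions of letters, not of binding. The only matches that overlapped were NRF1 letters read on both strands, as GCATGCGC and its reverse complement share bases.

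ETS letters were in 5 of 30 members that fell, 0 of 3 that rose and 7 of 34 that were not called. YY1 letters were in 4, 2 and 6 of these, NRF1 letters in 4, 1 and 3, and the E-box in 3, 0 and 2. At 6 h the median was -0.32 over the 12 members with ETS letters and -0.35 over the 55 without them. It was -0.23 over the 12 with YY1 letters and -0.38 without, -0.32 over the 8 with NRF1 letters and -0.35 without, and -0.45 over the 5 with the E-box and -0.34 without. No difference between these sets was tested. In 8 members the YY1 letters lay on the gene's strand 11 to 36 bases after the start, Mrps7 and Mrpl49 among them. The windows of the 2 members with the lowest values and of 3 that rose are shown in lower case, 5′ to 3′ on the gene's strand, with matches in capitals. Their places are chr17:45686099-45686398 (plus strand) for Mrpl14, chr4:49521034-49521333 (minus strand) for Mrpl50, chr3:94443086-94443385 (plus strand) for Mrpl9, chr11:115603890-115604189 (plus strand) for Mrps7 and chr19:6057706-6058005 (minus strand) for Mrpl49.
Mrpl14: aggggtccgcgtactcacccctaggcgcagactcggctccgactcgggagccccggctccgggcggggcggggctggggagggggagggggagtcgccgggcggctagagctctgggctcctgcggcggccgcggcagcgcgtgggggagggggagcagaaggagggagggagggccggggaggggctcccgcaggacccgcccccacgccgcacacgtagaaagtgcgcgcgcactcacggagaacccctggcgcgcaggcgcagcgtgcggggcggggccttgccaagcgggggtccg
Mrpl50: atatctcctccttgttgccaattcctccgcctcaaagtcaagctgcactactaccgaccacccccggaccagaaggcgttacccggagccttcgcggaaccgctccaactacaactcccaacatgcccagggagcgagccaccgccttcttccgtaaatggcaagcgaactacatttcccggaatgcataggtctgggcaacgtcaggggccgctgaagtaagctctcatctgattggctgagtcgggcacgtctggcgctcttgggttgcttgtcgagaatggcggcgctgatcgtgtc
Mrpl9: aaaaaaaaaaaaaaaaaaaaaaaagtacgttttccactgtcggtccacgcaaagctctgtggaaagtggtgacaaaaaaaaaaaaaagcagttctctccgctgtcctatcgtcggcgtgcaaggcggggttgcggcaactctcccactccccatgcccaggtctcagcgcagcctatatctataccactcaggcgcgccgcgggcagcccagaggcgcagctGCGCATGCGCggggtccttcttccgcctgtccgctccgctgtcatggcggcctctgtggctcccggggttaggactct
Mrps7: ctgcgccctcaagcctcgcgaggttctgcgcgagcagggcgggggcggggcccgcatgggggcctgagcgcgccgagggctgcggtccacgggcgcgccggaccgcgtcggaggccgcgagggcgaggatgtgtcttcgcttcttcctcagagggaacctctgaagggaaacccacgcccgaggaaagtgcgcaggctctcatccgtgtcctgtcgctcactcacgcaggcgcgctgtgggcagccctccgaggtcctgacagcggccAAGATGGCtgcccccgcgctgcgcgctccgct
Mrpl49: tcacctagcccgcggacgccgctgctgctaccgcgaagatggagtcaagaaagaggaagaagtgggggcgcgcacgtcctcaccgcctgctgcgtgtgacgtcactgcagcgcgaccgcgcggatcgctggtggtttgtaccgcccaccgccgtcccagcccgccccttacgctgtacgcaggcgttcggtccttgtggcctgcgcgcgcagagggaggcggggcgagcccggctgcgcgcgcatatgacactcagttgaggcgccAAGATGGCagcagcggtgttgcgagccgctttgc
The windows of Mrpl14 and Mrpl50 hold none of the 4 sets of letters. That of Mrpl9 holds the overlapping NRF1 letters just before the start, and those of Mrps7 and Mrpl49 hold the YY1 letters after it.

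By 3 h most members had a value below 0, but with small changes. Of the 76, 61 lay below 0 and the median log2 fold change was -0.23, against 0.02 over all genes tested. The edgeR test called 0 of them lower, where 1.3% of all genes were. DESeq2 called 9 members lower, beside 5.18% of all genes, and limma-voom 0, beside 1.28%. At an unadjusted edgeR p under 0.05 there were 20 lower members, beside 10.4% of all genes. In 50 members both 3 h libraries lay below both controls, and in 9 both lay above, against 24.8% and 28.4% of all genes tested. At 6 h these counts were 56 and 5, against 31.2% and 35.7% of all genes. Apart from Mrpl34, Mrpl14 and Mrpl1, the lowest values at 3 h were those of Mrps24 (-0.57, SE 0.20) and Mrps28 (-0.57, SE 0.16), both of the small subunit. At 6 h these genes fell, with log2 fold changes of -0.74 (SE 0.19) for Mrps24 and -0.74 (SE 0.16) for Mrps28. With library size as the only scaling both were at -0.38 and not called. The highest values at 3 h after Mrpl9 were those of Mrpl49 (0.42, SE 0.14), Mrpl45 (0.36, SE 0.22), Mrps7 (0.22, SE 0.15) and Mrpl44 (0.15, SE 0.15), none of which was called. From 3 h to 6 h the members' median was -0.12, against 0.01 over all genes, and 0.01 with library size as the only scaling. The lowest values in that comparison after Mrpl50 were Mrpl14 (-0.90, SE 0.18), Mrpl54 (-0.64, SE 0.17) and Mrpl47 (-0.57, SE 0.13), with edgeR adjusted p of 0.051, 0.0982 and 0.0664. The highest were Mrps34 (0.34), Mrpl9 (0.30), Mrps7 (0.25) and Mrps31 (0.23), none called.

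Both subunits had members that fell. Split by symbol, 23 of 47 large subunit genes fell at 6 h and 2 rose, with a median of -0.41. Of the 29 small subunit genes 12 fell and 2 rose, with a median of -0.30 that became 0.06 with library size as the only scaling. With that scaling 9 large subunit genes fell and 2 rose, and 1 small subunit gene fell and 3 rose. Of all genes tested 14.3% fell and 14.8% rose at 6 h, and 3.87% and 28.8% with that scaling. The difference between the subunits was not tested. Genes with a bacterial counterpart and genes specific to mitochondria had the same median to 2 decimals, -0.35, which with library size as the only scaling was 0.01 and 0.00. Of these, 21 of 45 and 13 of 30 fell under TMM scaling, and 6 and 4 with library size as the only scaling. Mrps36, counted in neither set because its protein is now known as a part of the α-ketoglutarate dehydrogenase complex, fell too (-0.51, SE 0.13). With library size as the only scaling Mrps36 was at -0.15 and not called.

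The members were then read by their place in the ribosome. Around the exit tunnel, Mrpl22 (-0.62, SE 0.12) and Mrpl24 (-0.73, SE 0.21) fell along with Mrpl47, while Mrpl23 (-0.37, SE 0.18) was not called. Mrpl45, which anchors the ribosome to the inner membrane, was at 187 and 111 CPM in control, 192 and 190 CPM at 3 h and 153 and 196 CPM at 6 h. Its control libraries differed so much that the sign of its value at 6 h (0.23, SE 0.22) turned to -0.09 without control replicate 2. In the stalk that recruits translation factors, Mrpl12 fell (-0.50, SE 0.15), and Mrpl10 (-0.18, SE 0.16) and Mrpl11 (-0.17, SE 0.17) did not pass the test. At 3 h the value of Mrpl12 was 0.01 (SE 0.15). It was at 50.2 and 44.5 CPM in control, 48.3 and 47.5 CPM at 3 h and 36.2 and 30.9 CPM at 6 h.

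Of the conserved core proteins of the large subunit, Mrpl2 fell (-0.51, SE 0.15), and Mrpl3 (-0.26, SE 0.14) and Mrpl4 (-0.15, SE 0.18) did not pass. In the central protuberance, the crown of the large subunit, Mrpl40 (-0.44, SE 0.13) and Mrpl48 (-0.57, SE 0.17) fell, whereas Mrpl46 (-0.41, SE 0.21) and Mrpl38 (-0.06, SE 0.13) did not pass. Mrpl46 was the member with the fewest counts. Mrpl37 (-0.09, SE 0.13) and Mrps30 (-0.02, SE 0.14), both large subunit proteins found only in mitochondria although the latter carries a small subunit symbol, had values near 0 at 6 h. With library size as the only scaling the values at 6 h of Mrpl3, Mrpl4, Mrpl10, Mrpl11, Mrpl37, Mrpl38 and Mrps30 were above 0, between 0.10 and 0.33. With that scaling Mrpl2, Mrpl12, Mrpl22, Mrpl24, Mrpl40 and Mrpl48 had values between -0.37 and -0.08 and were not called.

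In the small subunit, Mrps12, a protein of the decoding centre, was at 38.6 and 34.2 CPM in control, 33.3 and 34.5 CPM at 3 h and 25.2 and 24.1 CPM at 6 h. The 3 h libraries overlapped the controls and the 6 h libraries lay below both groups, with a log2 fold change of -0.57 (SE 0.14, edgeR adjusted p = 0.0191). Mrps5, near the entry of the message, fell by 0.35 (SE 0.11, edgeR adjusted p = 0.0384) under TMM scaling and was at 0.01 with library size as the only scaling. The 3 paralogs that share the number 18 did not all pass the test. Mrps18b (-0.54, SE 0.13) and Mrps18c (-0.59, SE 0.14) fell, while Mrps18a, whose protein lies in the large subunit, was not called (-0.33, SE 0.17) and was at 0.03 with library size as the only scaling. Mrps12 (-0.21), Mrps18b (-0.18) and Mrps18c (-0.24) were not called with that scaling.

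Summed over the family, the members took 0.444% ± 0.0109 (SD, n = 2) of all counts in control, 0.451% ± 0.0185 at 3 h and 0.439% ± 0.00269 at 6 h. The libraries of the groups overlapped in this share. As a percentage of counts off the mitochondrial chromosome, the shares were 0.590% ± 0.0156, 0.559% ± 0.0194 and 0.530% ± 0.00707, with both 6 h libraries below all others. Subunits were split by symbol, so Mrps18a, Mrps30 and Mrps36 count as small subunit genes in the next ratio. The control libraries had 2.10 and 2.05 large subunit counts per small subunit count, those of 3 h 1.98 and 1.88, and those of 6 h 1.85 and 1.84. This ratio does not depend on scaling, and its groups did not overlap, but no test was run on it: between 2 groups of 2 libraries a permutation test cannot reach 0.05, and a test over the 3 groups was not made. Without Mrpl34 and Mrps2, the members with the most counts in each subunit, the control libraries had 2.28 and 2.21, those of 3 h 2.20 and 2.22, and those of 6 h 2.08 and 2.07, so that control and 3 h overlapped.

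**Figure D4:**
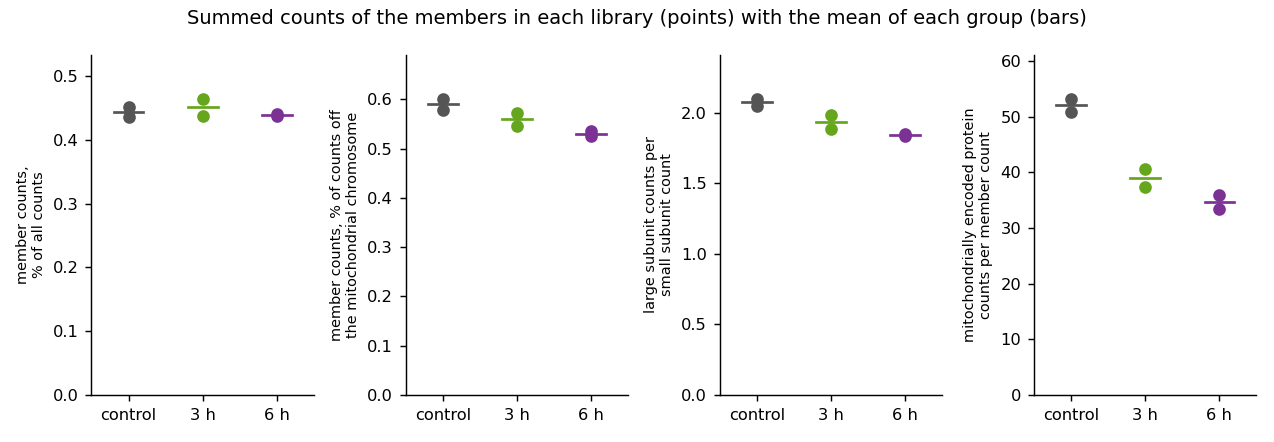
Summed member counts in each library (points, 2 a group, with the group mean as a bar), as a percentage of all counts, as a percentage of counts off the mitochondrial chromosome, as large per small subunit counts, and as mitochondrially encoded protein counts per member count. The first share overlaps between groups near 0.44%, and the other 3 measures are lowest in the 6 h libraries.

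The other genes of the mitochondrial ribosome and its expression did not share 1 pattern. Of 7 mitoribosomal protein genes without an Mrpl or Mrps symbol, 3 fell at 6 h, with a median of -0.31 that became 0.05 with library size as the only scaling. They were Gadd45gip1 (-0.66), a large subunit protein at the tunnel exit, Ict1 (-0.56), a peptidyl-tRNA hydrolase built into the large subunit, and Dap3 (-0.47), a GTP-binding protein of the small subunit. None of the 3 was called with library size as the only scaling. Among 27 assembly factors and rRNA modifiers, 5 rose and 1 fell at 6 h, with a median of 0.06. With library size as the only scaling 11 rose. Of all genes tested 14.8% rose and 14.3% fell at 6 h, and 28.8% and 3.87% with that scaling. Mrm1 (1.13, SE 0.23), which methylates the large rRNA, Ddx28 (0.73, SE 0.18), a helicase for large subunit assembly, and Trub2 (0.65, SE 0.19), a pseudouridine synthase, rose the most, and Ngrn (-0.45, SE 0.13), which acts on the large rRNA, fell. Of 15 translation factors, Guf1 (1.29), an elongation GTPase, and Mtrf1l (1.07), a release factor, rose, and Tsfm (-0.60), the exchange factor of the elongation factor Tu, and Slirp (-0.42), an RNA-binding protein, fell. With library size as the only scaling the median of the translation factors went from -0.09 to 0.27. With it 4 of the 15 rose and 0 fell, beside 28.8% and 3.87% of all genes.

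Of 12 tested regulators of mitochondrial transcription and biogenesis, 6 fell at 6 h, beside 14.3% of all genes tested. Their median was -0.50 (-0.14 with library size as the only scaling), and Ppargc1a was not tested. Tfb2m, a factor for starting mitochondrial transcription, was at 24.5 ± 4.38 CPM (SD, n = 2) in control and 7.55 ± 0.221 CPM at 6 h (-1.69, SE 0.20). Myc (-1.40, SE 0.21) and Nrf1 (-0.79, SE 0.21), both transcription factors, fell as well. With library size as the only scaling 2 of the 12 fell and 1 rose, beside 3.87% and 28.8% of all genes. Nrf1 (-0.43) was not called with that scaling.

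Set beside other ribosomal genes, the members had a median nearer to 0. At 6 h 68 of 80 cytoplasmic ribosomal protein genes fell, with a median of -0.56 and an interquartile range of 0.17, and at 3 h 7 fell. With library size as the only scaling 12 of the 80 fell at 6 h and 1 rose, with a median of -0.21. Of all genes tested 14.3% fell at 6 h and 1.3% at 3 h. With library size as the only scaling 3.87% of them fell at 6 h and 28.8% rose. Of the 13 protein genes of the mitochondrial chromosome, 12 fell at 6 h with a median of -0.97, and 10 at 3 h with a median of -0.59. With library size as the only scaling 11 of the 13 fell at 6 h, with a median of -0.61. Counts of those 13 genes per member count went from 50.9 and 53.2 in control to 40.5 and 37.5 at 3 h and 35.9 and 33.4 at 6 h, without overlap. For cytoplasmic ribosomal protein counts per member count the control libraries had 18.7 and 18.3, those of 3 h 17.4 and 16.8, and those of 6 h 16.3 and 16.1, also without overlap. No p is given for these differences between lists.

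**Figure D5:**
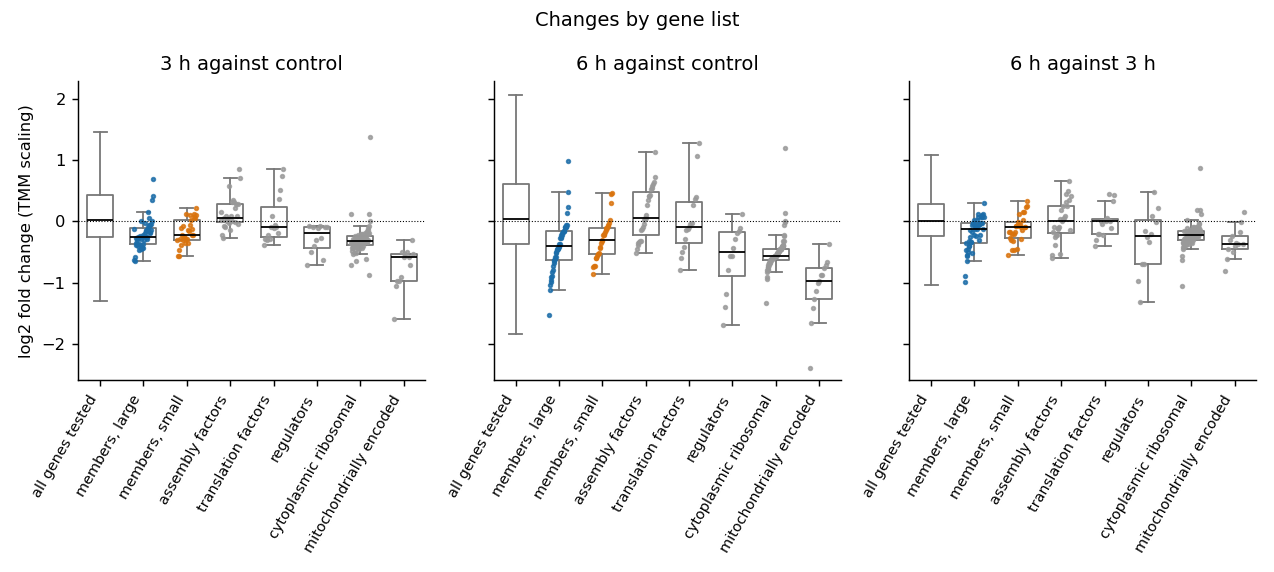
Log2 fold changes under TMM scaling in the 3 comparisons by gene list, as boxes of median and quartiles with whiskers to 1.5 interquartile ranges and a point for each gene, except for all genes tested, shown as a box without outlying genes. At 6 h the medians of the large and small subunit members, -0.41 and -0.30, lie between those of the assembly factors, 0.06, and of the cytoplasmic ribosomal protein genes, -0.56; with library size as the only scaling all medians lie higher, and that of the small subunit is 0.06.

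The members are short genes of few exons. The median transcript had 1302 bases and 4.5 exons, against 3130 bases and 9 exons over 11553 tested protein-coding genes. Over the 76 members, Spearman's rho of the log2 fold change at 6 h was 0.15 with transcript length, 0.10 with GC content and -0.04 with mean CPM. Over the 11553 genes the last was -0.32. No p is given because genes are not independent replicates. A protein-coding neighbour started within 1000 bases on the opposite strand, heading away, for 17 members (22.4%) against 10.4% of tested protein-coding genes.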

How the data were processed

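Polyadenylated RNA of 6 libraries was counted per gene, and the authors deposited raw whole-number counts, 1 file per library. The build was mm10, per the submitters' processing notes. The aligner, the counting program, its use of strand and whether molecular identifiers were collapsed are not given in the sources used here. The series title says bulk and its design text mentions single-cell sequencing, but each file holds 1 column and was used as 1 library. Groups and replicate numbers came from the sample titles.

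Genes with at least the CPM of 10 counts in the median library in 2 libraries and 15 counts in total were kept (filterByExpr). edgeR 4.0.16 (R 4.3.3) fitted 1 mean per group over all 6 libraries with TMM factors and 3 residual degrees of freedom, and the quasi-likelihood F test was two-sided. P-values were adjusted by Benjamini-Hochberg over the 12755 genes, with calls under 0.05. SE is the size of the log2 fold change divided by the square root of F. The script was tested on simulated counts. Alternatives used DESeq2 1.42.0, limma-voom 3.58.1, other scalings, filters, fits and left-out libraries. A count ratio without 2 members was chosen after seeing the data. The members and gene lists were chosen with earlier results of these data known.

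Named members are the 8 lowest and 5 highest at 6 h, the 5 lowest and 5 highest at 3 h, the 4 lowest and 4 highest between 3 h and 6 h, and members fixed by their role. Mrpl58 of that set is listed as Ict1. From each other list at most 3 called genes a direction are named. Exon overlaps and lengths came from GENCODE on GRCm38, and promoter windows from RefSeq on GRCm38.p6. Replicate libraries differed beyond counting noise, at 18.7 to 27.8 units of chi-square per degree of freedom.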

Additional observations from a re-analysis of the deposited data

Results flagged for a closer look

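Mrpl50 stood out because its change at 6 h differed from its change at 3 h by a test of that difference. Its log2 fold change against control was -0.12 (SE 0.13) at 3 h and -1.12 (SE 0.13) at 6 h, and the difference was -0.999 (SE 0.13, edgeR adjusted p = 0.00994). Both 6 h libraries lay below both 3 h libraries. The call was lost when any 1 of the 4 libraries was left out, with values from -1.05 to -0.94.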

How the results depend on the processing

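At 6 h, 35 members were lower under upper quartile and relative log expression scaling, DESeq2, limma-voom, the strict filter, robust moderation, the fit with a replicate block and the fit without mitochondrially encoded genes, 31 with no filter, 28 with only the libraries compared and 34 after thinning. With library size alone 10 members were lower, at an adjusted p under 0.01 there were 14 lower and 1 higher, and leaving out 1 library gave 11 to 27 lower and 1 to 3 higher. In the fits with 28 to 35 lower members, 1544 to 2107 of all genes were lower, against 1821 in the main fit. Higher members numbered 2 with relative log expression scaling, 2 with the replicate block and 1 with only the libraries compared. Of all genes 1830, 1783 and 1657 rose in the same order. The median at 6 h was -0.0061 with library size alone and -0.41 to -0.31 without 1 library. At 3 h, 0 members were higher at an adjusted p under 0.01 or with upper quartile or relative log expression scaling. The same held for limma-voom, the replicate block, only the libraries compared, mitochondrially encoded genes left out and libraries thinned to the smallest. With library size alone 2 members were higher at 3 h, where the members' median was -0.0048. With that scaling 1316 of all 12755 genes were higher, with a median of 0.25. Lower members at 3 h numbered 9 with DESeq2, 5 with no filter, 1 with the strict filter and 1 with robust moderation, and 0 to 2 lower and 0 to 2 higher were called without 1 library. Between 3 h and 6 h, lower members numbered 9 with DESeq2, 4 with limma-voom, 6 with no filter, 2 with the strict filter, 2 with robust moderation, 4 with only the libraries compared, 2 after thinning and 0 without 1 library; the median was 0.0091 with library size alone. All genes called lower at 3 h numbered 661 with DESeq2 and 595 of 17485 with no filter, against 166 in the main fit. The strict filter gave 196 and robust moderation 227. Between 3 h and 6 h, all genes called lower numbered 449 with DESeq2, 319 with limma-voom and 594 with no filter, against 151. There were 180 with the strict filter, 188 with robust moderation, 314 with only the libraries compared and 138 after thinning. As a share of counts off the mitochondrial chromosome the members took 0.590% in control, 0.559% at 3 h and 0.530% at 6 h. The causes were not tested, except that a stricter threshold gives fewer calls by construction.

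With library size alone the values at 6 h became 0.028 for Mrps18a, 0.0055 for Mrps5, 0.17 for Mrpl10, 0.19 for Mrpl11, 0.10 for Mrpl3, 0.20 for Mrpl4, 0.30 for Mrpl38, 0.33 for Mrps30 and 0.27 for Mrpl37, and that of Mrps30 was 0.000762 with upper quartile scaling. Without 1 library Mrpl4 ranged from -0.46 to 0.095, Mrpl45 from -0.092 to 0.66, Mrpl38 from -0.14 to 0.025 and Mrps30 from -0.071 to 0.032. Over 12755 genes, deviations of same-numbered libraries correlated at 0.09 (control and 3 h), -0.02 (control and 6 h) and 0.02 (3 h and 6 h). Over the members these values were 0.20, -0.12 and 0.09. With 2 libraries a group, they cannot show whether same-numbered libraries were handled together. The replicate block left 35 lower members at 6 h, 0 at 3 h and 1 between 3 h and 6 h. A floor of 3 counts equals 0.0990 to 0.367 CPM and no member came near it. The SE at 6 h was 0.21 for Mrpl46, the member with the fewest counts, and 0.22 for Mrpl45, which had many more. The part of depth in the precision was not tested.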
